A study of Caenorhabditis elegans with 2 samples.

Results

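The synaptic release genes described here are 10 genes by which Caenorhabditis elegans neurons dock, prime and fuse transmitter vesicles or make and release neuropeptides: snb-1, unc-64, ric-4, snt-1, unc-10, unc-13, unc-18, unc-31, egl-3 and egl-21. They were chosen by name, with earlier results of these data known. They are 10 of the 19973 protein-coding genes on the 6 chromosomes of assembly WBcel235 (ce11). The data are peak lists from chromatin immunoprecipitation and sequencing of the basic helix-loop-helix factor HLH-15 in whole late embryos, taken 3 hours after synchronisation by egg bleaching. The only group is the hermaphrodite strain OP566, unc-119(tm4063) III; wgIs566, whose transgene makes HLH-15 with GFP and FLAG at its C terminus. It has 2 biological replicates and no second genotype, stage or treatment, so that levels were described and no contrast between conditions could be tested. The immunoprecipitation used anti-GFP by the labels' description, whereas the antibody field names hlh-15. Whole embryos were used, so that a signal is an average over all cell types.

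In a synapse, a SNARE complex made of synaptobrevin on the vesicle and syntaxin with SNAP-25 on the plasma membrane drives membrane fusion, and synaptotagmin senses the calcium that triggers it. Active zone and priming proteins bring vesicles to the release site and make them ready. Neuropeptides travel in dense-core vesicles, where they are cut out of larger precursors before release. Most of these genes are used by nearly all neurons, and basic helix-loop-helix factors, which bind E-boxes of the form CANNTG, include many known regulators of neuron development.

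No synaptic release gene had a peak among the 407 peaks of the authors' thresholded list, which keeps peaks by the IDR (irreproducible discovery rate), a score for the reproducibility of a peak's rank over replicates. A gene was given every peak whose summit lay inside it or within 2 kb upstream, and 0 of the 10 genes had one in the IDR list, against 2.52% of all protein-coding genes. At that share a count of 0 among 10 genes is near the background. In the longer pooled list, which holds peaks and background together, 8 of the 10 genes had a summit, against 50.9% of all protein-coding genes, and ric-4 and snt-1 had none. These 8 genes carried 19 pooled peaks, with signal values from 19.2 to 32.0 on the authors' scale. The highest was 54.4% of the lowest signal in the IDR list, 58.9, and 2763 pooled peaks ranked above it. The 407th pooled peak also had a signal of 58.9, so that the 407 IDR peaks match a cut of the pooled list by signal. That all 19 peaks at these genes were weaker than every IDR peak therefore restates the count of 0.

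The share of all genes with a peak was higher in longer regions, and summits summed over the regions were about as dense at the release genes as at all genes. The regions searched ran from 2.94 kb at snb-1 to 33.3 kb at unc-13, with a median of 8.05 kb over the 10 genes and 4.03 kb over all protein-coding genes. Among all genes the share with a pooled summit was 38.2% for regions under 4 kb, 70.9% for regions of 6 to 10 kb and 97.7% for regions of 20 kb or more. Pooled summits numbered 0.177 per kb in the regions of the 10 genes, 0.183 per kb over those of all protein-coding genes and 0.176 per kb over the whole genome. By gene, the median was 0.184 per kb over the 10 genes and 0.0887 per kb over all protein-coding genes, of which many short ones have no summit. With 1 kb upstream the release genes had 0.134 per kb, against 0.186 for all protein-coding genes, and in the gene body alone 0.126 per kb, against 0.168. In the replicate 1 list the release genes had 0.205 summits per kb, against 0.219 for all protein-coding genes. In the replicate 2 list the release genes had 0.317 per kb, against 0.309 for all protein-coding genes. The median signal of the 19 was 22.2, against 23.9 over all 17654 pooled peaks, and 8 of the 19, or 42.1%, ranked above the middle of the list. No test was run on these shares, which describe a list of named genes.

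**Figure D1:**
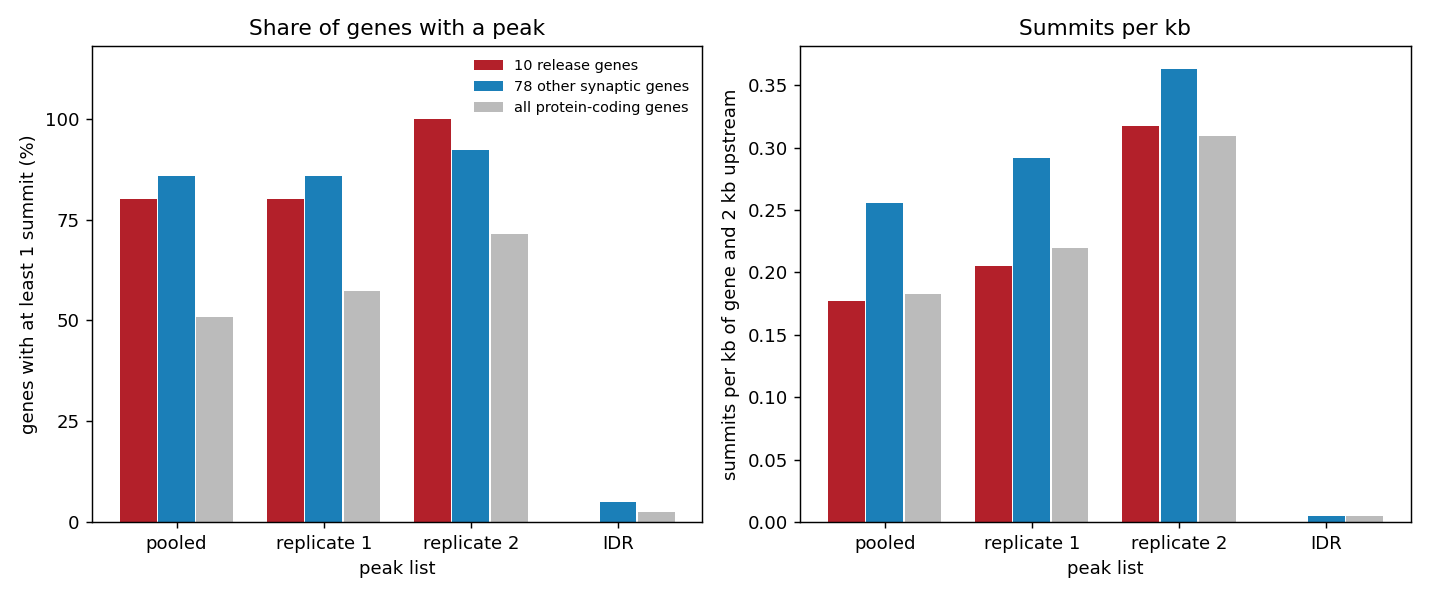
The left panel plots the percentage of genes with at least 1 summit inside the gene or within 2 kb upstream in 4 peak lists, for the 10 release genes (red), 78 other synaptic genes (blue) and all 19973 protein-coding genes (grey). The right panel plots summits per kb of the same regions. The release genes stand above all genes in the share with a pooled peak (80% against 50.9%) but not in summed summits per kb (0.177 against 0.183), and have no IDR peak.

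Ranked by signal, the 19 pooled peaks began at rank 2764 with unc-10 and ended at rank 17128 with unc-13. The next protein-coding genes above unc-10 by the rank of their best pooled peak were C38H2.3, rbpl-1 and str-148, with signals of 32.0, and those next below were rsbp-1 and T06D10.8, which share a peak, and ptl-1, also with signals of 32.0. In all, 2705 genes had a better-ranked peak than unc-10. Over the 8 genes with a pooled peak, the best peak lay at a median of 31.5% down the list, against 35.5% for the 10175 protein-coding genes with one. Of the 10 genes 4, unc-10, egl-21, unc-13 and egl-3, had a peak among the strongest 5000, against 21.5% of all protein-coding genes, whose regions are shorter. By peak, 4 of the 19, or 21.1%, were among the strongest 5000, against 28.3% of all pooled peaks.

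**Figure D2:**
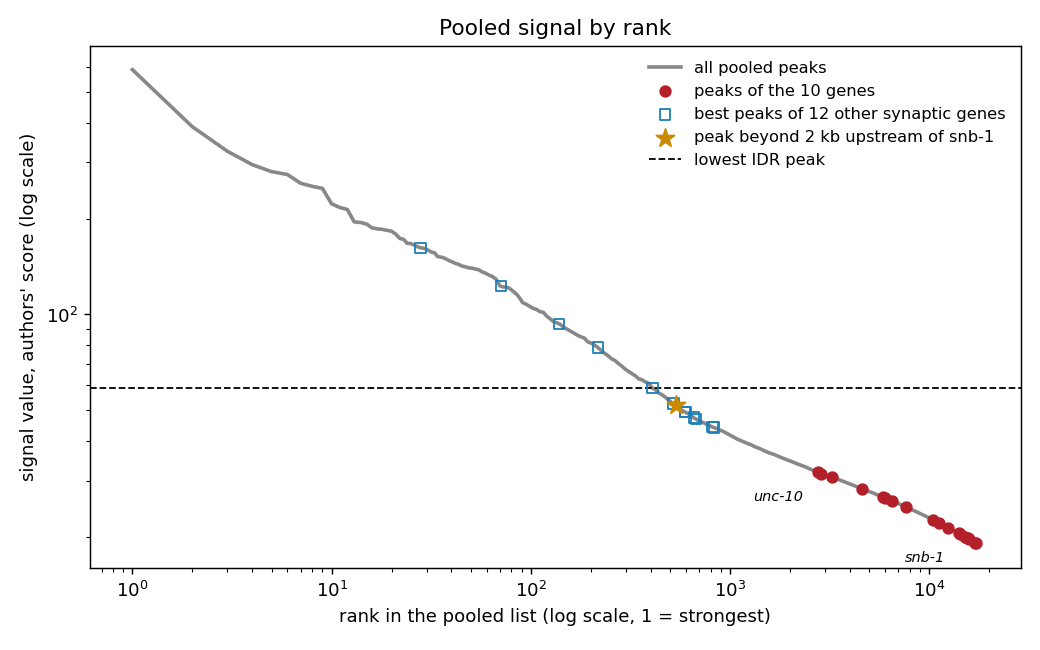
The signal value of pooled peaks is plotted against their rank, both on log scales. Red points are the 19 peaks of the release genes, blue squares the best peaks of 12 other synaptic genes, the star a peak 2553 bp upstream of snb-1, and the dashed line the lowest IDR signal of 58.9. All red points lie below the line, at signals of 32.0 or less.

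The sequences below show the best-ranked upstream peaks and windows that differ in base composition or E-box, each as 100 bases to either side of the summit, read 5′ to 3′ along the strand of the named gene in WBcel235. Capitals mark an E-box on either strand, or, in the unc-18 window, the bases that belong to a tRNA gene. The unc-10, egl-21 and unc-18 windows are the best-ranked upstream peaks and hold no E-box. Of the 3 unc-64 windows upstream of the gene, the one shown, 1120 bp upstream, is rich in CT repeats and has a GC content of 51.7%, whereas the strongest, 1644 bp upstream, has 24.9%. The unc-64 window inside the gene, at rank 15929 of 17654, is the only member window with CAGCTG, and the egl-3 window is the upstream member window with CACATG, read here as CATGTG. The snb-1 window lies just beyond the 2 kb bound and is no member peak.
unc-10, chrX:7281173-7281373, minus strand: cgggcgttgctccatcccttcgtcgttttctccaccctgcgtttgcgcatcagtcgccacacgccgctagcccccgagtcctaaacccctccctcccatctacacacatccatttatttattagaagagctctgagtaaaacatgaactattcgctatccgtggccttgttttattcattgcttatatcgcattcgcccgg
egl-21, chrIV:10482226-10482426, minus strand: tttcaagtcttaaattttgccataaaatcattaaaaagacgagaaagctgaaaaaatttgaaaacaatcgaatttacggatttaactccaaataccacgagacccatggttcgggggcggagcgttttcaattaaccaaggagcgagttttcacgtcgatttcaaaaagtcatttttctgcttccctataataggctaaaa
unc-18, chrX:7680896-7681096, plus strand: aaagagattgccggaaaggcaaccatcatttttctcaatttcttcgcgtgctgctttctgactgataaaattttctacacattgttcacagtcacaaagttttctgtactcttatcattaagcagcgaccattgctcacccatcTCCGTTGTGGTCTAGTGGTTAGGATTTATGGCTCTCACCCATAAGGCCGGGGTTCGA
unc-64 upstream, chrIII:13276038-13276238, plus strand: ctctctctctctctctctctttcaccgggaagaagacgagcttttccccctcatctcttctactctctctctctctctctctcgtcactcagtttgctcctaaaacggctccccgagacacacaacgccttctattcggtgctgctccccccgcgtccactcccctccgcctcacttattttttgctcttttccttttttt
unc-64 intron, chrIII:13280631-13280831, plus strand: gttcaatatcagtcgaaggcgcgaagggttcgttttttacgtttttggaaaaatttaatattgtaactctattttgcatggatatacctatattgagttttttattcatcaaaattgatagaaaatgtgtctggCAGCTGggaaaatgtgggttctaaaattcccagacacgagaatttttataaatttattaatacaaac
egl-3, chrV:10175604-10175804, minus strand: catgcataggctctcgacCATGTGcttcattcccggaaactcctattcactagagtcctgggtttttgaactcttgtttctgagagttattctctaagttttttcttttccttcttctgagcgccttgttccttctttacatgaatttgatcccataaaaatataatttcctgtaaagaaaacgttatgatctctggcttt
snb-1 beyond 2 kb, chrV:6658954-6659154, minus strand: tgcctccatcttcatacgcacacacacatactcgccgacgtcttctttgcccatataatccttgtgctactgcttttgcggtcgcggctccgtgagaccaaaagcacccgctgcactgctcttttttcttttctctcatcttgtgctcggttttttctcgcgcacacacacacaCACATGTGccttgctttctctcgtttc

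Among the SNARE genes, unc-64 had the most peaks and ric-4 the fewest. The gene unc-64 (WBGene00006798, chromosome III, 13277258 to 13283887, plus strand) encodes syntaxin and had 4 pooled peaks. Of these, 3 lay 1644, 1361 and 1120 bp upstream of the gene, with signals of 24.9, 19.8 and 22.7, and the middle one overlapped the peaks on either side. The strongest of them matched a replicate 2 peak with its summit 15 bp away and a signal of 16.4, at rank 2358 of 30000, and no replicate 1 peak. The peak 1120 bp upstream, like the middle one, overlapped a peak in both replicates, with signals of 17.4 in replicate 1 and 10.3 in replicate 2. The fourth pooled peak, in an intron 3473 bp into the gene, had a signal of 19.7. It overlapped a replicate 2 peak of signal 16.2 at rank 2492, whose summit lay 240 bp away, and no replicate 1 peak.

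The synaptobrevin gene snb-1 (WBGene00004897, chromosome V, 6655562 to 6656501, minus strand) is the shortest of the 10. Its pooled peak lay in a coding exon 426 bp from the gene start, with a signal of 20.5 at rank 14152. Overlapping peaks had signals of 13.7 in replicate 1, at rank 16593 of 21250, and 9.00 in replicate 2, at rank 19389 of 30000. The pooled summit also lies within 2 kb upstream of syx-18, a neighbouring syntaxin-related gene. The replicate 1 summit, 539 bp from the start of snb-1, had syx-18 as its nearest protein-coding start. The best replicate 2 peak of snb-1 lay elsewhere, 1600 bp upstream, with a signal of 9.37 at rank 17589. Another replicate 2 peak lay 1801 bp upstream, with 8.13. The SNAP-25 gene ric-4 (WBGene00004364, chromosome V, 10261131 to 10270314, minus strand) had no pooled and no replicate 1 summit. In replicate 2 it had 2 intronic summits 3356 and 6178 bp into the gene, with signals of 8.80 and 10.3, at ranks 20426 and 13892. The nearest pooled summit was 1695 bp beyond the region searched.

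A stronger peak lay just outside the reach set for snb-1. Upstream of the 10 genes, the pooled summits closest to the 2 kb bound on the inside were those of egl-3 at 1951 bp, with a signal of 19.8, and of unc-18 at 1900 bp, with 26.0001. On the outside, egl-21 had one of 31.6 at 2046 bp, nearer to the start of ced-5, and unc-31 one of 20.5 at 2350 bp. Beyond snb-1 lay one of 51.9 at 2553 bp and one of 21.7 at 2758 bp. The stronger of these had its summit at chromosome V, 6659054, ranked 535 of 17654 and had snb-1 as the nearest protein-coding start, but lay neither inside nor within 2 kb upstream of any protein-coding gene. It had a signal of 30.8 at rank 817 in replicate 1, with the summit at the same base, and of 12.8 at rank 6620 in replicate 2, with the summit at 6659070. It was higher than any of the 19 peaks of the release genes and still below the lowest IDR signal. Its summit window holds the overlapping E-boxes CACATG and CATGTG, a single palindromic stretch at the end of a CA repeat.

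The synaptotagmin gene snt-1 and the active zone gene unc-10 both had upstream peaks in each replicate, which met in the pooled list only at unc-10. At snt-1 (WBGene00004921, chromosome II, 6810963 to 6816433, plus strand) the replicate 1 summit lay 1401 bp upstream, with a signal of 20.4 at rank 4508 of 21250, and the replicate 2 summit 667 bp upstream, with 10.97 at rank 11390 of 30000. These are different positions, and snt-1 had no pooled summit, the nearest lying 4200 bp outside its region. The gene unc-10 (WBGene00006750, chromosome X, 7272317 to 7280322, minus strand) encodes RIM, a scaffold of the active zone, and had the highest pooled signal of the release genes, 32.0, 951 bp upstream. Replicate 1 had a summit 866 bp upstream, with a signal of 19.8 at rank 5120, and replicate 2 one 1153 bp upstream, with 19.2 at rank 1113, which is 3.71% down its list. No other member lay within 3.71% of the top of any of the 3 lists. In replicate 1, however, egl-21, at rank 3275, and snt-1, at rank 4508, stood above unc-10. As a scale, the 407th peak had a signal of 38.5 in replicate 1 and 25.3 in replicate 2, above the 19.8 and 19.2 of unc-10.

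At the priming gene unc-13 most peaks lay inside the gene. The gene unc-13 (WBGene00006752, chromosome I, 7422785 to 7454116, plus strand) encodes Munc13, which opens syntaxin for SNARE assembly, and is the longest of the 10. It had 6 pooled summits, 0.180 per kb, with signals of 30.9, 26.7, 26.5, 20.4, 19.2 and 19.2. The strongest lay in an intron 6794 bp into the gene, with its window holding CAAGTG, and had a signal of 18.6 in replicate 1 and 16.8 in replicate 2, with summits 6468 and 6898 bp into the gene. The next lay in a coding exon at 8189 bp, with 13.8 in replicate 1 and 14.2 in replicate 2. The peak of 26.5 lay in an intron at 19609 bp, 642 bp upstream of an unc-13 transcript start. Of the 6 peaks, 4 overlapped a peak in both replicates, the one at 12866 bp overlapped a replicate 1 peak alone, and the one at 22988 bp overlapped none.

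The Munc18 gene unc-18 (WBGene00006757, chromosome X, 7682896 to 7686037, plus strand), whose product binds syntaxin, had its only pooled summit 1900 bp upstream, with a signal of 26.0001. That summit lay within 100 bp of a tRNA gene (WBGene00023016, chromosome X, 7681040 to 7681111) and 377 bp upstream of the start of stn-2, a syntrophin gene, which is nearer than unc-18. The overlapping replicate 1 peak had its summit 2039 bp from unc-18, just beyond the reach set here, with a signal of 20.3 at rank 4650. Replicate 2 had a summit there with 9.03 and others 491 bp upstream, with 10.6, and 2638 bp into the gene, with 10.5. Of the 19 peaks, only this one had its nearest protein-coding start at another gene, and only this one was so close to a tRNA or snoRNA gene. Among all pooled peaks 2.35% lay that near to such a gene.

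The genes of peptide release differed in how well the replicates met. The gene unc-31 (WBGene00006767, chromosome IV, 12773867 to 12788354, plus strand) encodes CAPS, a priming factor of dense-core vesicles. Its 3 pooled peaks had signals of 22.2, 21.4 and 20.1, and none overlapped a peak in both replicates. The strongest, in an intron 13359 bp into the gene and 234 bp upstream of an unc-31 transcript start, overlapped no replicate peak at all. The best replicate 1 peak of unc-31, with a signal of 19.1 at 5265 bp, had no pooled counterpart. At egl-3 (WBGene00001172, chromosome V, 10169177 to 10173753, minus strand), which encodes a proprotein convertase that cleaves neuropeptide precursors, the better pooled peak lay in a coding exon 3856 bp into the gene, with a signal of 28.4. The replicate summits there lay at most 29 bp from the pooled one, with 15.8 in replicate 1 and 10.9 in replicate 2. The other, 1951 bp upstream with 19.8, overlapped no replicate peak. The best egl-3 peaks of the replicates lay elsewhere, 1310 bp upstream with 19.1 in replicate 1 and 985 bp upstream with 11.8 in replicate 2, and neither had a pooled counterpart.

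The gene egl-21 (WBGene00001189, chromosome IV, 10478442 to 10481844, minus strand) encodes a carboxypeptidase that trims the cut peptides. Its single pooled peak, 482 bp upstream, had a signal of 31.7, second among the release genes, and also lay within 2 kb upstream of ced-5. Replicate 1 had summits 486 and 109 bp upstream and 168 bp into the gene, with signals of 15.98, 21.6 and 22.01. Replicate 2 had a summit 543 bp upstream, with 12.8 at rank 6747. The best peak of egl-21 lay 16.3% down the pooled list, 15.4% down the replicate 1 list and 22.5% down the replicate 2 list, though not at the same position in each. For unc-10 these shares were 15.7%, 24.1% and 3.71%.

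**Figure D3:**
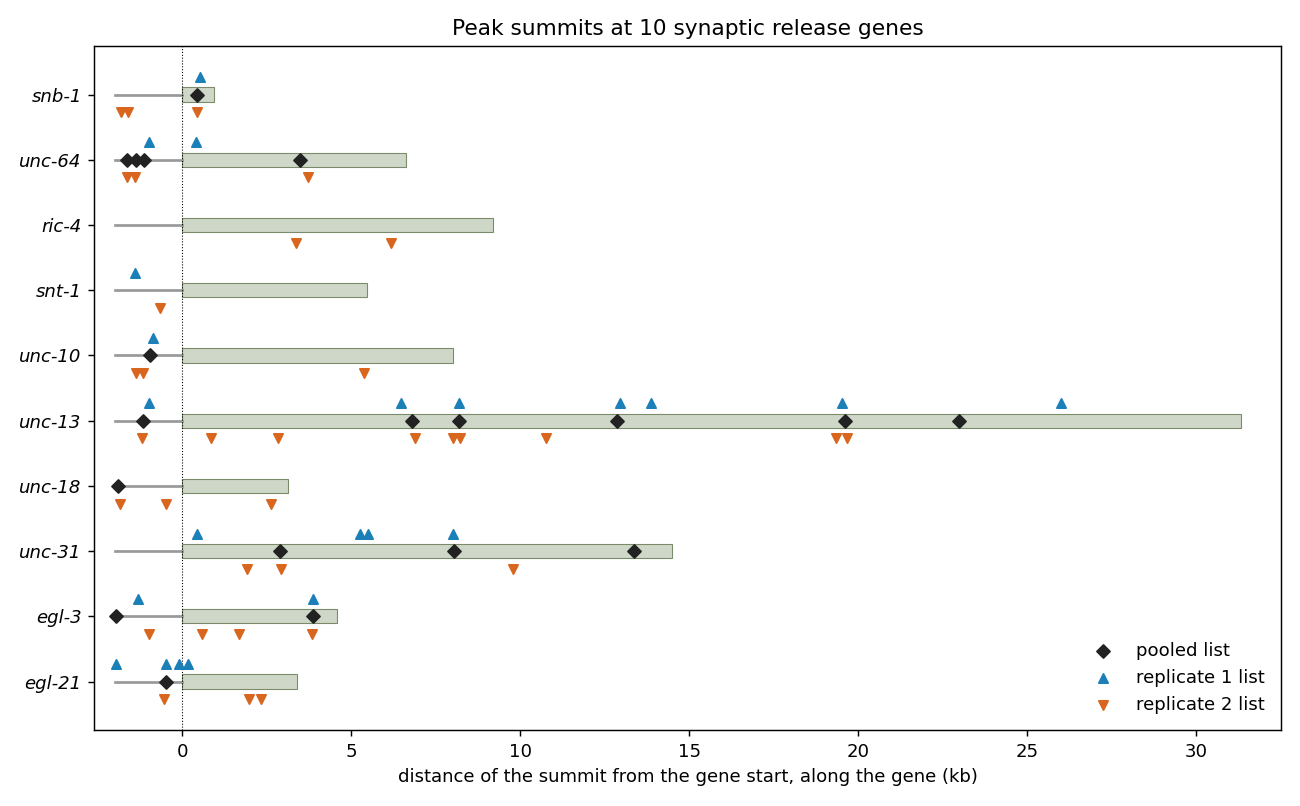
Summits at the 10 genes are drawn by distance from the gene start in kb, with the gene as a green bar and the 2 kb upstream as a grey line. Black diamonds are pooled, blue triangles replicate 1 and orange triangles replicate 2 summits. Symbols line up at the coding exon of egl-3 and upstream of egl-21, are spread out in unc-31, and are absent from the pooled row at ric-4 and snt-1.

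**Figure D4:**
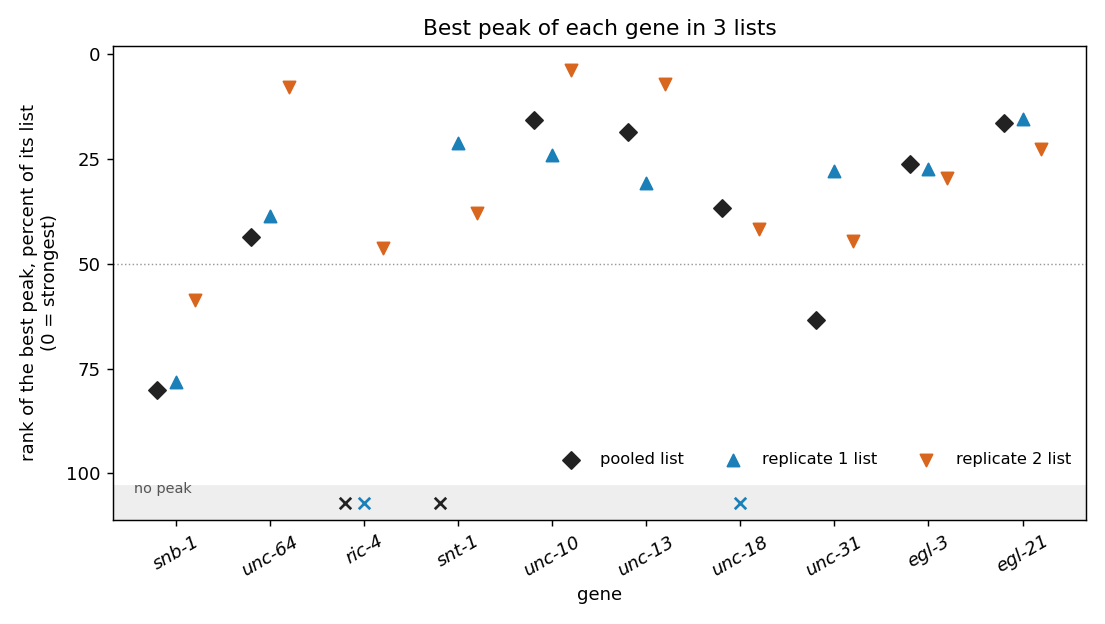
The rank of the best peak of each gene is given as a percentage of its list, with the strongest peak at the top and crosses for no summit in that list. Among the release genes unc-10, unc-13 and unc-64 reach the upper 10% in replicate 2 only, and snb-1 lies in the lower part of all 3 lists.

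Of the 19 pooled peaks, 11, or 57.9%, overlapped a peak in both replicates by at least 1 bp, against 47.9% of all pooled peaks. They belonged to 7 genes, all with a pooled peak but unc-31, against 29.4% of all protein-coding genes. The regions of all genes are shorter, with a median of 4.03 kb against 8.05 kb for the 10. Asking for summits within 100 bp in both replicates left 4 peaks, 21.1% against 22.5% of all pooled peaks. These 4 were the egl-3 exon peak, the egl-21 peak and the unc-13 peaks at 8189 and 19609 bp, though at egl-21 a stronger replicate 1 peak, and at 8189 bp in unc-13 a stronger replicate 2 peak, also overlapped with its summit farther away. In the replicate lists themselves, the release genes had 22 peaks in replicate 1, at 8 genes against 57.3% of all protein-coding genes, and 34 in replicate 2, at all 10 genes against 71.5%. Of the 22 peaks in replicate 1, 54.5% overlapped a replicate 2 peak, against 45.2% over that whole list. Of the 34 in replicate 2, 38.2% overlapped a replicate 1 peak, against 32.1%.

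By position, 8 of the 19 pooled summits lay upstream of the gene, 6 in coding exons and 5 in introns. Over all 19079 pairs of a pooled summit and a protein-coding gene, 43.1% lay upstream, 16.4% in coding exons and 35.5% in introns, so that the release genes had 31.6% against 16.4% in coding exons. Within 1 kb of any protein-coding transcript start lay 7 of the 19 summits, or 36.8%, against 46.3% of all pooled summits. Of the pooled summits inside or within 2 kb upstream of any protein-coding gene, 54.8% lay that near. The median GC content was 39.8% in the 19 windows, against 36.8% over all pooled windows.

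E-boxes were in 6 of the 19 windows, or 31.6%, against 51.7% of all pooled windows of the same 201 bases, counting any CANNTG on either strand. By type, CAAATG and CACATG were each in 2 windows, CAAGTG and CAGCTG in 1 each, and the other types in 0. Among all pooled windows these types were in 15.8%, 6.49%, 8.11% and 4.07%. The 6-mer CGCACA was in 1 window, at snb-1, and CCGCAC in 0, against 6.14% and 4.24% of all pooled windows. With 150 bp to each side of the summit, 12 of the 19 windows, or 63.2%, held an E-box, against 65.7% of all pooled windows, so that the difference in share depends on the window. A match here describes letters in a window and is not a bound site.

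The other synaptic genes had more peaks and a few strong ones. They are 78 further genes of release, active zone, calcium and other ion channels, vesicle recycling, transport, peptide and transmitter pathways. Their lists were chosen with earlier results of these data known, so that the shares below only describe these lists. Of the 78, 67, or 85.9%, had a pooled summit, against 50.9% of all protein-coding genes, with 0.256 summits per kb against 0.183. Among the strongest 5000 peaks 43, or 55.1%, had one, against 21.5%. In the IDR list 4 of the 78, or 5.13%, had a summit, against 2.52%: unc-41, cat-1, unc-104 and nsf-1. Per kb of region, IDR summits were no denser at the 78 genes, with 0.00472 against 0.00517 for all protein-coding genes. The gene unc-41 encodes stonin, an endocytosis adaptor, and its peak of signal 162 lay in an intron within 100 bp of a snoRNA gene. The peak of cat-1, the vesicular monoamine transporter gene, had 123 and lay in an intron, as close to a tRNA gene. The peak for unc-104, the kinesin that carries synaptic vesicle precursors, had 93.4 in an intron 6532 bp into the gene. The peak of nsf-1, whose ATPase takes SNARE complexes apart after fusion, had 78.7, 421 bp upstream. Neither of these lay near a tRNA or snoRNA gene.

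Below the IDR bound, egl-30, a G protein alpha subunit gene that promotes release, had the best pooled peak, at rank 408 with a signal of 58.8. The gene unc-80, for a subunit of the sodium leak channel complex, had 52.5, slo-1, for a calcium-activated potassium channel, had 49.5, and unc-76, an axon outgrowth gene, had 49.4. The endocytosis genes apa-2, unc-11 and itsn-1 had 47.4, 46.99 and 44.4, and unc-14, a transport gene, had 44.1. These 12 were picked as the best of the 78 genes, so that signals above the 32.0 of unc-10 largely follow from the choice. Each of the 12 peaks overlapped a peak in both replicates, against 47.9% of all pooled peaks, most of them weaker. All 7 other genes listed under docking and priming, which include signalling genes such as egl-30, had a pooled summit. So did all 8 of endocytosis and all 8 of transport. Of the 10 others of vesicle and SNARE proteins 9 had one, and of the 9 others of the active zone 8. Of the 8 genes listed with the calcium channels 7 had one. That list also holds genes of other ion channels, such as unc-80 and slo-1. Of the 10 others of peptide processing 8 had one, and of the 18 of transmitter synthesis and transport 12. These counts stand beside 50.9% of all protein-coding genes, whose regions are shorter, with a median of 8.53 kb for the 78 and 4.03 kb for all. Among regions of 4 to 6 kb, 10 of 14 of the 78 had a pooled summit, against 52.7% of all genes of that length. From 6 to 10 kb it was 25 of 28, against 70.9%, and from 10 to 20 kb 23 of 25, against 87.7%. Under 4 kb it was 3 of 5, against 38.2%, and from 20 kb 6 of 6, against 97.7%. Several of these genes are also used outside neurons.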

How the data were processed

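The deposited data are narrowPeak lists in ce11 of 2 biological replicates of 1 group: a list for each replicate, a pooled list and the IDR list. Per the notes deposited with the files, peaks in the replicate and pooled lists come from alignments of the ChIP libraries set against a control, and these lists hold peaks and background as input for the IDR step. Aligner, peak caller and read depth: not given in the sources used here. Peak signal is the authors' deposited score, with no stated scale, and was therefore compared within a list or as a rank (rank 1 is strongest). The ce10 lists were not used here.

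Genes were taken from Ensembl release 115 and bases from the NCBI copy of WBcel235, with Python 3.11.15, pandas 2.3.3, numpy 2.4.6 and Biopython 1.88. A gene's region is its whole annotated extent and 2 kb upstream, and a summit in several regions counted for each. Distances are from the outermost gene start unless a transcript start is named. Peaks overlapped when they shared at least 1 bp, and where several peaks of a replicate overlapped, the strongest is given. The assignment of summits to genes was tested on simulated data. The members and the lists of 78 other genes were chosen with earlier results of these data known; nca-1 was not matched by name in the annotation and was left out. The genes named are all members, other genes that share their peaks, the 3 genes next above and below the best member, and, of the other lists, those with an IDR peak and the 12 with the best pooled peak. The sequences printed for unc-64, for egl-3 and beyond 2 kb of snb-1, and the snb-1 peak outside its region, were chosen after their values were seen. With 1 group no test was made, and counts over genes or peaks are descriptions.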

Additional observations from a re-analysis of the deposited data

How the results depend on the processing

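The count of 0 members with an IDR peak was the same with 5 kb upstream. The other settings were 1 kb upstream, the gene body alone, no peaks at tRNA and snoRNA genes, and the stronger IDR peaks alone. These only take regions or peaks away, so that a count of 0 could not change. They are among the 38 comparisons below that did not move. With the gene body alone, 5 members had 11 pooled peaks, 5 of them overlapped in both replicates, and the wider list stood at 74.4%; over all protein-coding genes the share with a pooled peak was then 30.6%. With 1 kb upstream 7 of 13 member peaks, and with 5 kb 17 of 25, overlapped in both replicates, against 47.9% of all pooled peaks. With 5 kb the wider list stood at 94.9%, against 66.5% of all protein-coding genes. Among the strongest 5000 pooled peaks 4 members had 4 peaks, 4 overlapped in both replicates, at 0.0373 per kb. No value over all of the strongest 5000 peaks is given here for that overlap or density. Neither is therefore read as a trait of the members. In this setting the wider list stood at 55.1%, against 21.5% of all protein-coding genes. Summits within 100 bp left 4 peaks met in both replicates, 21.1% against 22.5% of all pooled peaks. With 150 bp to each side 12 of the 19 windows, 63.2%, held an E-box, against 65.7% of all pooled windows, so the lower share in shorter windows depends on the width. Taking 1 replicate's list in place of the pooled one gave 8 to 10 members, 22 to 34 peaks, 45.5% to 52.9% above the middle of the list, 0.205 to 0.317 summits per kb and 85.9% to 92.3% of the wider list. In all, 17 comparisons of a result with an alternative moved past the spread allowed for that result and 38, some of them given here, did not. The 38 include 13 peaks with 1 kb upstream, 8 peaks met in both replicates by overlap of at least 50% of each peak and 4 E-box windows with 50 bp to each side. The 8 peaks are 42.1% of the 19, against 37.5% of all pooled peaks, and the 4 windows 21.1%, against 30.7%. The causes of these shifts were not tested. No paired analysis was possible because there is 1 group. Read depth is unknown and limits what a missing peak can show.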
